A study of Mus musculus with 49 samples.

Results

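The mouse-specific LINE1 (L1Md) copies transcribed in late 2-cell embryos were examined one insertion at a time. LINE1 elements are retrotransposons that copy themselves through an RNA intermediate, and L1Md names mark the LINE1 families found in the mouse lineage. Members were all annotated insertions whose name starts with L1Md and that held reads in 25% or more of the embryos of the TBP experiment, that is in 5 or more of 18. This gave 213 insertions of 6 families. They were drawn from 136659 annotated L1Md rows, of which 5790 had a read in any of the 18 embryos, and they stand among 40760 insertions of all transposable elements (TEs) that met the same rule. The rule used the presence of reads and not the comparison between groups.

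Each library was 1 whole embryo, lysed 48 h after hCG, so that fewer cells and less RNA per cell cannot be told apart. Per the authors' methods, the parents were F1(C57BL/6JxCBA/H) females and F1 males. In the TBP loss of function (LOF) group, zygotes received an anti-TBP antibody and, after 4 h, mRNA for mCherry-Trim21, a ubiquitin ligase fusion with which Trim-Away directs the antibody-bound protein to degradation. CONTROL zygotes received mouse IgG and the same mRNA. The labels give 9 TBP LOF and 10 CONTROL embryos, collected per the labels as 3 biological replicates that are not assigned to single embryos, and 1 CONTROL embryo under 500000 counted reads was left out, leaving 9 against 9. FOXJ3 LOF embryos (10 in batch 1 and 7 in batch 2) and CONTROL embryos with rabbit IgG (7 and 6) were read at the level of families only, and 1 FOXJ3 LOF embryo of batch 1 was left out for the same reason.

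A full-length mouse LINE1 starts with a 5′ UTR that holds its own RNA polymerase II promoter, in most young families built from repeated monomers, and encodes ORF1p, an RNA-binding protein, and ORF2p, an endonuclease and reverse transcriptase. Mouse families are told apart mainly by these 5′ regions: A, T (also written Tf) and Gf elements include the youngest and still mobile copies, and F elements are older and mostly truncated. LINE1 transcription rises when the embryonic genome is activated. TBP is the TATA-binding subunit of the general transcription factor TFIID and also takes part in transcription by RNA polymerases I and III.

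Counted reads per embryo lay between 1148892 and 5425733, and those on L1Md insertions were few, between 770 and 2341 per embryo. ERCC spike-in reads made up 2.67% to 6.12% of the counts in TBP LOF and 2.22% to 3.25% in CONTROL embryos, and counts were divided by size factors from the spike-ins (normalized counts). The targeted gene's mRNA was lower in TBP LOF embryos, with a median normalized count of 83.3 for Tbp against 279.5 and no overlap between groups (log2 fold change -2.14, SE 0.37, adjusted p = 5.28e-06 by edgeR's quasi-likelihood test), although Trim-Away acts on the protein. All 10 genes of a 2-cell list, which also holds the maternal transcripts Zp3 and Dppa3, had reads, and 8 did not pass. Usp17lc, a gene of the 2-cell stage, was higher (log2 fold change 1.38, SE 0.40, adjusted p = 0.00516) and Zp3, made in the oocyte, lower (-1.83, SE 0.34, adjusted p = 2.29e-05) in TBP LOF embryos, where 29.7% of all genes and TE families tested were lower and 1.34% higher. With TMM scaling, which sets the bulk of features equal between groups, both passed as well, and so did Zfp352 (1.33, adjusted p = 0.000449) and Eif4e3 (1.07, adjusted p = 0.000335), both higher, where 12.7% of features were lower and 12.8% higher. Of 10 cumulus and other somatic markers, 4 (Ptx3, Has2, Lum, Hbb-bs) were at 0 in all 18 embryos, and the summed count of the list lay between 0 and 8.79 in TBP LOF and between 0 and 50.5 in CONTROL embryos, with Tnfaip6, a gene of the cumulus matrix, as the main source in CONTROL embryos (lower in TBP LOF embryos, log2 fold change -2.46, SE 0.75, adjusted p = 0.00866; not past the threshold with TMM). The other 2 somatic markers tested had positive values, Foxl2, a granulosa cell factor, at 2.03 (adjusted p = 0.157; with TMM 2.77, adjusted p = 0.0409) and Krt8, a keratin, at 0.83 (adjusted p = 0.581). The part of both marker lists in the results was not tested. Of single embryos, TBP LOF 7 and TBP LOF 11 had few L1Md rows with a read and TBP LOF 10 a makeup unlike the others, with values given beside the results.

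The 213 members were spread unevenly over the families. L1Md_F2, the family with the most annotated copies (64898), gave 104 members, followed by L1Md_T with 45, L1Md_A with 32, L1Md_F3 with 16, L1Md_F with 15 and L1Md_Gf with 1 (L1Md_Gf_dup488). No member came from L1MdTf_II, whose rows in these tables are single monomers: 355 of its 4123 rows had a read, but none in 5 embryos. The other 24 L1Md names in the annotation held no read in any of the 49 embryos of the series. They include names of A, Tf and Gf subfamilies, whereas L1Md_A, L1Md_T and L1Md_Gf held reads. A 0 is thus a count per name and does not show that such elements were silent. How reads were assigned between names was not tested. Count files give an insertion's family and copy number, and its position, host gene and sequence were not analysed here.

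Few copies carried most of the signal. Of the 5790 rows with a read, monomer rows included, 3249 (56.1%) had exactly 1, and 4542 had reads in 1 embryo only. Members held 14826 of the 26194 L1Md insertion reads (56.6%), and 10 members alone held 38.5%. Among members, 185 had fewer than 50 reads over the 18 embryos and the median was 17 reads. At the edge of the rule, 55 members had reads in exactly 5 embryos, with 5 to 31 reads in all, and 102 insertions with reads in 4 embryos, and 4 to 21 reads, were outside it. The insertion with most reads among those left out, L1Md_F2_dup52302, had 41 reads, all in 1 embryo.

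The share of a family's reads that fell on recurrent copies differed between families. Members took 68.6% of L1Md_F2 insertion reads, 56.4% of L1Md_F, 52.5% of L1Md_F3, 37.9% of L1Md_T, 37.1% of L1Md_A and 8.71% of L1Md_Gf. Not every read counted for a family was also placed on a copy. Insertion counts summed to 93.1% of the family count for L1Md_F2, 89.0% for L1Md_F3, 88.2% for L1Md_F, 78.2% for L1Md_T, 77.1% for L1Md_A, 64.6% for L1Md_Gf and 51.2% for L1MdTf_II, over the 18 embryos. The younger A, T and Gf families and the monomers thus had the larger gap between both counts.

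As families, L1Md transcripts were not detectably changed upon TBP LOF. None of 7 families passed the threshold of 0.05 on the adjusted p, and 0 had an unadjusted p under 0.05 by edgeR or by DESeq2 with the same size factors, where 29.7% of all 19357 genes and TE families tested were lower and 1.34% higher. The other LINE1 families, read for comparison, had 45 of 118 lower (38.1%) and 0 higher.

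**Figure D1:**
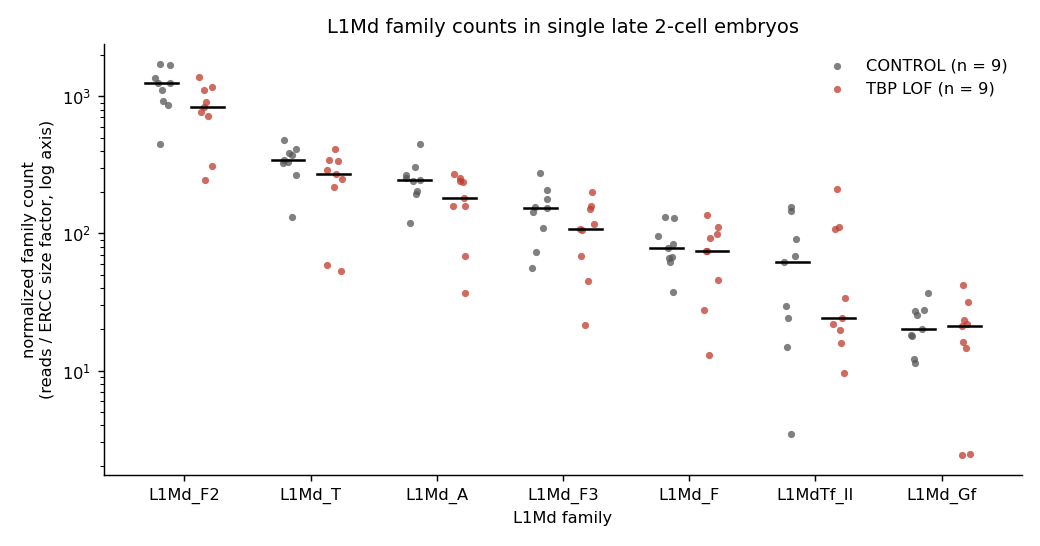
Normalized counts of the 7 L1Md families (reads divided by ERCC size factor, log axis) in 9 CONTROL and 9 TBP LOF embryos; each point is an embryo and the line is the median. L1Md_F2 had the highest counts, and the groups overlapped in every family.

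L1Md_F2, an older F-type family, had the most reads. Its normalized count ran from 446 to 1730 in CONTROL (median 1246) and from 245 to 1378 in TBP LOF embryos (median 841), with a log2 change of -0.51 (SE 0.31, adjusted p = 0.224). L1Md_T ran from 131 to 482 (median 344) against 53.4 to 410 (median 269.9), with -0.45 (SE 0.32, adjusted p = 0.309). L1Md_A ran from 120 to 448 (median 243) against 36.9 to 273 (median 182), with -0.50 (SE 0.31, adjusted p = 0.243). In these 3 families the medians were lower in TBP LOF embryos, and the 2 lowest TBP LOF values lay under every CONTROL value, in TBP LOF 11 and TBP LOF 7. These 2 embryos also had the largest ERCC shares of all embryos kept (6.03% and 6.12%). A large ERCC share lowers every normalized count of an embryo, so the low values are not particular to L1Md counts.

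L1Md_F3 ran from 55.6 to 274 in CONTROL (median 153) and from 21.5 to 202 in TBP LOF embryos (median 107), with a log2 change of -0.47 (SE 0.33, adjusted p = 0.314). For L1Md_F, medians were 77.6 and 74.7, with -0.16 (SE 0.34, adjusted p = 0.779). L1Md_Gf had few reads, with medians of 20.03 and 21.2 and a log2 change of -0.18 (SE 0.43, adjusted p = 0.805). Medians of both were close, and for each the lowest values were those of TBP LOF 11 and TBP LOF 7.

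L1MdTf_II monomers, the promoter units of Tf elements, ran from 3.47 to 155 in CONTROL (median 61.5) and from 9.53 to 209.99 in TBP LOF embryos (median 24.1), with a log2 change of -0.08 (SE 0.45, adjusted p = 0.924). The spread within a group, an SD of 55.3 about a mean of 66.0 in CONTROL and 68.0 about 61.6 in TBP LOF embryos, was larger than the difference between the means.

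All 7 family values were negative under spike-in scaling and all 7 were positive (0.27 to 0.82) under TMM scaling; none passed the threshold under either. The median log2 fold change over all genes and families was -0.72 with spike-ins and 0.11 with TMM. Relative to it, the median of the L1Md families was higher by 0.27 and 0.24.

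Shares and ratios within an embryo use no size factors, but a share of counted reads moves with all other reads, ERCC reads included. L1Md reads made up 0.0836% ± 0.0300 of counted reads in the TBP LOF group and 0.0771% ± 0.0211 in the CONTROL group (SD, n = 9 each). The lowest, median and highest embryo had 0.0370%, 0.0911% and 0.130% in TBP LOF and 0.0431%, 0.0833% and 0.102% in CONTROL embryos. The groups overlapped, and their means did not differ detectably (p = 0.598 by two-sided exact permutation, and 0.598 after adjustment over 3 tests). As a log2 ratio to ERCC reads the difference was -0.52 (two-sided exact permutation, p = 0.141).

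L1Md reads took a larger part of all LINE1 reads upon TBP LOF. They were 19.1% ± 2.03 of LINE1 reads in the TBP LOF group and 15.4% ± 1.37 in the CONTROL group (SD, n = 9 each), with 14.7%, 19.2% and 21.6% as lowest, median and highest in TBP LOF and 13.6%, 15.1% and 17.6% in CONTROL embryos. In 8 of 9 TBP LOF embryos the share was above that of every CONTROL embryo, and TBP LOF 8, at 14.7%, lay among the CONTROL embryos. The log2 ratio of L1Md to other LINE1 reads was -2.09 ± 0.20 against -2.46 ± 0.15, a difference of 0.37 or 1.295-fold (two-sided exact permutation test, n = 9 per group, p = 0.000987, adjusted over 3 tests p = 0.00296). Leaving out the most abundant insertion gave 0.31 (exact permutation test, p = 0.00527, adjusted p = 0.0158), and family counts gave 0.34 (p = 0.00148, adjusted p = 0.00444); both were tried after the data were seen. With only the insertions that met the 25% rule, the difference was 0.36 and no longer passed after adjustment (exact permutation test, p = 0.0187, adjusted p = 0.0561).

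**Figure D2:**
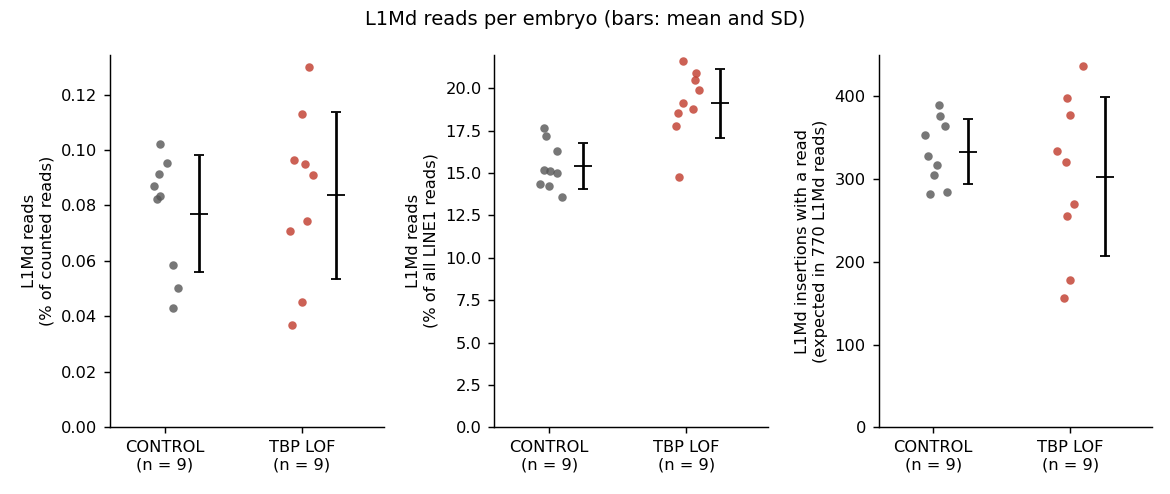
L1Md reads as a percent of counted reads (left), as a percent of all LINE1 reads (middle) and the number of L1Md insertions (monomer rows included) expected in 770 L1Md reads (right), per embryo, with bars for mean and SD (n = 9 per group). Only in the middle panel did most TBP LOF embryos lie above all CONTROL embryos.

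The makeup of the L1Md reads by family did not differ detectably. L1Md_F2 took a mean of 59.6% ± 6.23 in TBP LOF and 60.4% ± 3.86 in CONTROL embryos (SD, n = 9 each), L1Md_T 14.1% ± 3.42 and 14.97% ± 2.08, and L1Md_A 10.5% ± 1.78 and 10.7% ± 1.95. Of the 6 families with reads on insertions in every embryo, the largest difference in the log2 ratio of a family to all other L1Md reads was 0.26, for L1Md_F (two-sided exact permutation test, n = 9 per group, p = 0.115, adjusted over 6 tests p = 0.687).

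The number of L1Md rows with a read ran from 178 to 793 in TBP LOF (median 409) and from 381 to 599 in CONTROL embryos (median 514). Monomer rows of L1MdTf_II are among them, so several rows may belong to 1 element. Set to 770 L1Md reads per embryo by rarefaction, it was 303 ± 96.0 in TBP LOF and 333 ± 39.4 in CONTROL embryos (SD, n = 9 each). These means did not differ detectably (p = 0.395 by exact permutation, two-sided, and 0.593 after adjustment over 3 tests). TBP LOF 11 and TBP LOF 7 had the fewest rows, at 156 and 178, and TBP LOF 10 the most, at 436. Reads were thus spread over very different numbers of rows in embryos of the same group.

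Tested singly, together with all genes and other insertions (59208 features), 15 of the 213 members were lower and 6 higher in TBP LOF embryos, and 192 did not pass. Over all features, 14.6% were lower and 0.76% higher. Over genes alone 21.0% were lower and 0.575% higher, over all TE insertions 11.6% and 0.844%, and over the 1597 other LINE1 insertions 12.1% were lower and 1.69% higher. An unadjusted p under 0.05 was found for 42 members. The median log2 fold change of the members was -0.48, against -0.69 over all features and -0.84 over other LINE1 insertions. With TMM scaling the members' median was 0.16 and that of all features -0.06, so that relative to all features it was higher by 0.21 and 0.22 under the 2 scalings, and 8 members were lower and 9 higher, against 6.76% lower and 2.64% higher over all features. In no member were the groups' values fully apart, which held for 2.71% of all features. This needs a read in every embryo of 1 group, which sparse members lack, so the comparison says little about the members.

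**Figure D3:**
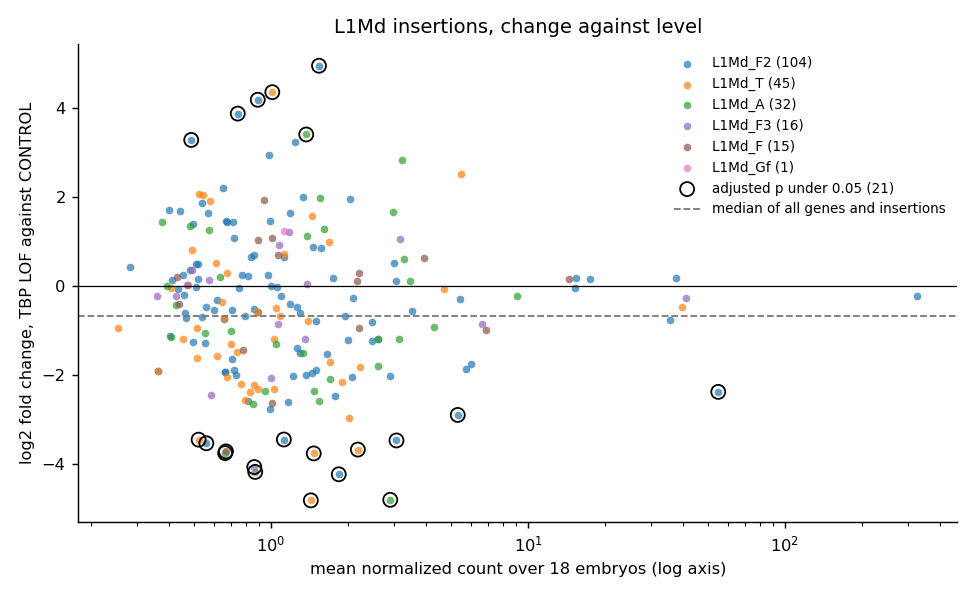
Log2 fold change of each of the 213 L1Md insertions (TBP LOF against CONTROL, edgeR with ERCC size factors) against its mean normalized count over 18 embryos (log axis), coloured by family; rings mark the 21 past the threshold. Of the 15 insertions with at least 100 reads only 1 is ringed, and the dashed line at -0.69 is the median of all genes and insertions.

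Most called members were sparse. The 21 had a median of 21 reads over the 18 embryos (8 to 688), and 12 of them had reads in 1 group only: 7 were at 0 in all TBP LOF and 5 at 0 in all CONTROL embryos. In all, 19 had reads in at least 5 embryos of the group where they are high and in fewer than 5 of the other, so that they met the 25% rule through the former and had to differ. L1Md_F2_dup57406, with reads in 4 CONTROL embryos and 1 TBP LOF embryo, was sparse as well. The reads of these 20 are given as a description, and their calls are no support for a change. Moreover, 8 of the 21 calls were lost in at least 1 of the 18 fits that left out an embryo. They were those of L1Md_F2_dup6503, of L1Md_A_dup6985 (without CONTROL 4, 5, 8 or 9 or TBP LOF 11, adjusted p up to 0.0549), of L1Md_F2_dup33007 (without TBP LOF 10 or CONTROL 8 or 9, up to 0.0597) and of L1Md_T_dup10941 (without CONTROL 4 or TBP LOF 7 or 11, up to 0.0799), and, in 10 to 15 of the fits, those of L1Md_F2_dup57406, L1Md_F2_dup25394, L1Md_F2_dup3280 and L1Md_F2_dup25303. With TMM scaling 7 of the 21 calls were lost, all lower ones, those of L1Md_F_dup130, L1Md_T_dup7307, L1Md_T_dup10941 and the F2 copies L1Md_F2_dup6503, L1Md_F2_dup19568, L1Md_F2_dup25303 and L1Md_F2_dup57406. Only L1Md_F2_dup6503 among the called had reads in at least 5 embryos of both groups, as 37 of the 213 members did.

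The best covered members gave the firmest values. L1Md_F2_dup52803 stood far above every other copy, with 5646 reads, 21.6% of all L1Md insertion reads and between 12.6% and 31.4% in single embryos. Its normalized count was 193, 352 and 581 as lowest, median and highest in CONTROL and 99.0, 259 and 527 in TBP LOF embryos. The groups overlapped (log2 fold change -0.24, SE 0.31, adjusted p = 0.682), and with TMM scaling the value was 0.41, also short of the threshold.

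L1Md_F2_dup6503 was the only well covered member past the threshold. Its normalized count was 3.05, 39.9 and 253 in CONTROL and 2.46, 13.5 and 47.9 in TBP LOF embryos (lowest, median and highest), with a log2 change of -2.39 (SE 0.75, adjusted p = 0.0292). CONTROL 3, 4 and 5, with 140, 152 and 134 reads, stood apart from the other 15 embryos, which had 3 to 39 reads. The call was lost without any 1 of these 3, without TBP LOF 5, 7 or 11 (adjusted p up to 0.0704), and with TMM scaling (-1.64, adjusted p = 0.140). Another F2 copy, L1Md_F2_dup1316, had 13.6, 34.2 and 81.6 in CONTROL and 4.92, 39.6 and 80.4 in TBP LOF embryos (log2 fold change 0.16, SE 0.48, adjusted p = 0.876).

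In the other families too, the groups overlapped at the highest copies, and none of these passed. L1Md_T_dup18258 had 10.9, 53.8 and 88.5 in CONTROL and 7.38, 33.3 and 59.7 in TBP LOF embryos (log2 fold change -0.47, SE 0.48, adjusted p = 0.584). L1Md_F3_dup1623 had 8.82, 51.4 and 92.0 against 1.64, 27.6 and 103 (-0.28, SE 0.55, adjusted p = 0.800). L1Md_F_dup3879, the leading copy of L1Md_F, had medians of 14.4 and 14.1 (0.14, SE 0.60, adjusted p = 0.915). L1Md_A_dup2194, that of L1Md_A, had medians of 9.99 and 8.57 (-0.24, SE 0.64, adjusted p = 0.859). Of the 15 members with at least 100 reads, 9 had a negative and 6 a positive value, between -2.39 and 2.52, with a median of -0.24.

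**Figure D4:**
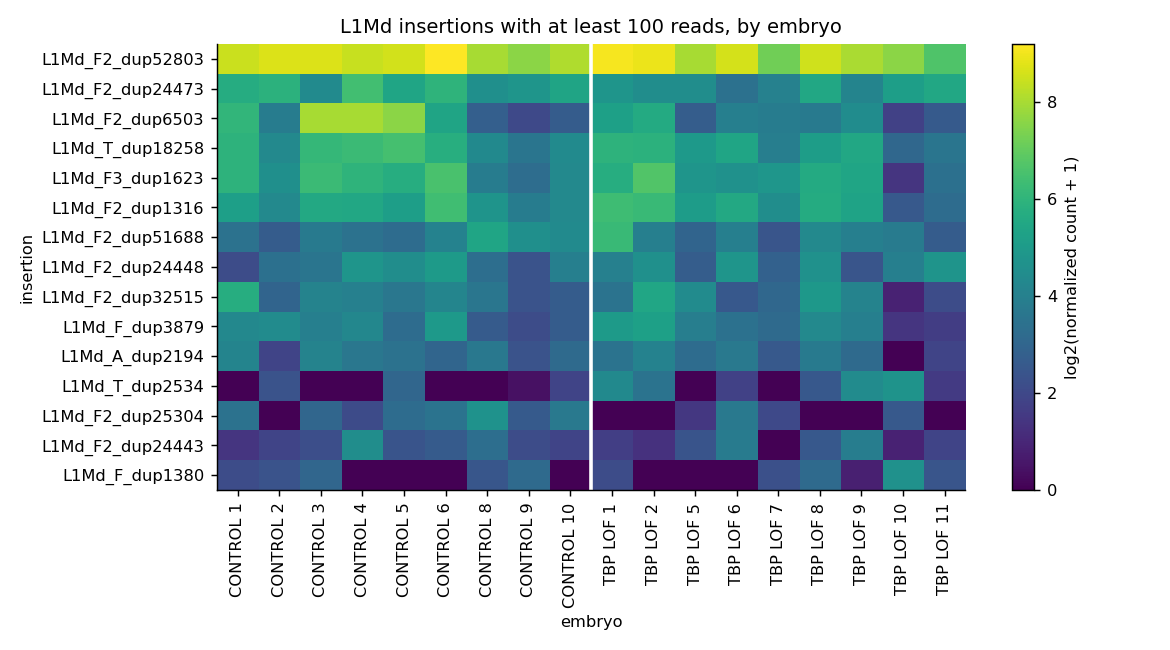
Normalized counts, as log2(count + 1), of the 15 L1Md insertions with at least 100 reads in 18 embryos (9 CONTROL left of the white line, 9 TBP LOF right of it). L1Md_F2_dup52803 is high in every embryo, L1Md_F2_dup6503 is high in CONTROL 3, 4 and 5, and TBP LOF 10 is low for several rows.

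TBP LOF 10 departed from the other embryos at these copies. It was the lowest of the 18 embryos for 7 of the 15 and the highest for 2, with 2 reads of L1Md_F3_dup1623, 6 of L1Md_F2_dup1316, 9 of L1Md_T_dup18258 and 0 of L1Md_A_dup2194. L1Md_F2_dup52803 gave 12.6% of its L1Md reads, the lowest share of the 18 embryos, and the L1Md reads of TBP LOF 10 lay on 793 rows, the most of all. Without TBP LOF 10, 18 members were lower and 4 higher (14.4% and 0.632% over all features of that fit), and the log2 ratio of L1Md to other LINE1 reads still differed by 0.37 (exact permutation test, p = 0.00181, adjusted p = 0.00543).

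Other highest-mean copies were not called. L1Md_A_dup204 and L1Md_A_dup5067 had log2 fold changes of 0.10 (SE 0.81) and -0.94 (SE 0.97). Those of L1Md_F_dup323 and L1Md_F_dup1380 were -0.99 (SE 0.90) and 0.62 (SE 1.00). For L1Md_F3_dup2030 and L1Md_T_dup4775 they were -0.87 (SE 0.80) and -0.07 (SE 0.96). None passed, and adjusted p-values ran from 0.532 for L1Md_F_dup323 to 0.976 for L1Md_T_dup4775.

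Among the called members with more reads in CONTROL embryos, L1Md_T_dup18657 had 22 reads in 8 of 9 CONTROL embryos (normalized 0, 3.33 and 5.71 as lowest, median and highest) and none in the 9 TBP LOF embryos. With the 0 set to a floor of 3 counts over the group, the pooled reads per size factor differed 10.8-fold. That value ignores the spread between embryos and is no lower bound on a change. L1Md_T_dup7845 had 8 reads in 6 CONTROL embryos and none in TBP LOF embryos.

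L1Md_A gave a similar picture. L1Md_A_dup638 had 33 reads in 7 CONTROL embryos and 1 read in TBP LOF embryos. Its mean normalized count was 5.69 in CONTROL and 0.13 in TBP LOF embryos. Of the 34 reads, 17 came from CONTROL 6. L1Md_A_dup10878 had 21 reads in 5 CONTROL embryos, 14 of them in CONTROL 9, and none in TBP LOF embryos. By reads, both thus leaned on 1 embryo. Reads are not scaled for depth, however, and CONTROL 9 had the most counted reads of all (5425733). After scaling, the highest value of L1Md_A_dup10878 was 5.42, in CONTROL 3 with 3 reads.

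In the F-type families the copies called lower had few reads as well. L1Md_F2_dup61971 had 23 reads in 7 CONTROL embryos, 11 of them in CONTROL 10, and 1 in TBP LOF embryos. Its mean normalized count was 3.58 in CONTROL and 0.09 in TBP LOF embryos. L1Md_F2_dup20972 had 9 reads in 5 CONTROL embryos and none in TBP LOF embryos. L1Md_F3_dup13968 had 10 reads in 6 CONTROL embryos and none in TBP LOF embryos, and L1Md_F_dup130 8 reads in 5 and none. The next in these families, L1Md_F3_dup12968 with 7 against 1 reads and L1Md_F_dup122 with 14 against 2, did not pass (adjusted p = 0.0983 and 0.0608).

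Called members with more reads in TBP LOF embryos came from L1Md_F2, L1Md_T and L1Md_A. L1Md_T_dup4302 had 28 reads in 6 TBP LOF embryos, 14 of them in TBP LOF 11, and none in CONTROL embryos. L1Md_F2_dup6796 had 31 reads in 5 TBP LOF embryos, 21 of them in TBP LOF 10, and none in CONTROL embryos. L1Md_F2_dup33007 had 18 reads in 5 TBP LOF embryos, 10 in TBP LOF 10, and none in CONTROL embryos. For each of the 3, a single TBP LOF embryo gave as many reads as all others together, or more. Reads are not scaled for depth, and TBP LOF 11 had the most counted reads of its group (4159885). After scaling, the highest value of L1Md_T_dup4302 was 7.94, in TBP LOF 8 with 5 reads.

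L1Md_A_dup6985 had 41 reads in 8 of 9 TBP LOF embryos, 25 of them in TBP LOF 11, and 1 read in CONTROL embryos. Its mean normalized count was 2.54 in TBP LOF and 0.20 in CONTROL embryos. L1Md_A_dup6078 had 49 reads in 7 TBP LOF embryos against 5 in 3 CONTROL embryos (log2 fold change 2.82, SE 1.08, adjusted p = 0.0776). L1Md_T_dup2534 had 96 reads in 7 against 11 in 4 embryos (2.52, SE 1.05, adjusted p = 0.106). These last copies had more reads in TBP LOF embryos but did not pass.

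**Figure D5:**
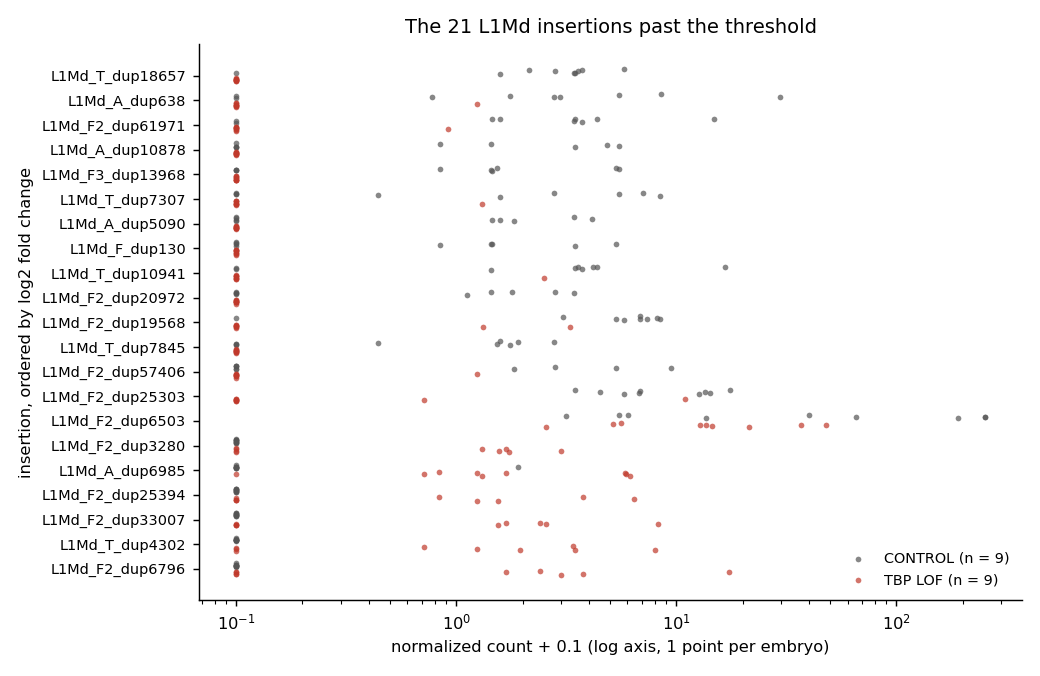
Normalized counts, plus 0.1, of the 21 L1Md insertions past the threshold (log axis), 1 point per embryo, ordered by log2 fold change; points at 0.1 are embryos with no read. In all 21 insertions the groups overlap or meet at 0, and L1Md_F2_dup6503 is the only one with reads in every embryo.

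In the families with fewer members, nothing rose past the threshold. L1Md_F_dup349 and L1Md_F_dup1383 each had 12 reads in TBP LOF embryos, against 2 and 4 in CONTROL embryos (adjusted p = 0.288 and 0.566). L1Md_F3_dup3086 had 53 against 14 reads and L1Md_F3_dup2 15 against 4 (adjusted p = 0.552 and 0.522). L1Md_Gf_dup488, the lone member of its family, had 16 against 5 reads (log2 fold change 1.24, SE 1.02, adjusted p = 0.474).

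By family, with 14.6% lower and 0.76% higher over all features and 20 of the 21 calls sparse as described, L1Md_F2 had 6 lower and 4 higher calls among 104 members (median log2 fold change -0.31), L1Md_T 4 and 1 among 45 (median -0.95), L1Md_A 3 and 1 among 32 (median -0.97), L1Md_F3 1 and 0 among 16 (median -0.24) and L1Md_F 1 and 0 among 15 (median 0.14). Differences between these family medians were not tested. Copy numbers that follow each other occurred in 11 pairs of members, among them L1Md_F2_dup25303 and L1Md_F2_dup25304, with 84 and 105 reads and log2 fold changes of -2.90 and -1.88. L1Md_F2_dup40619 and L1Md_F2_dup40743 held the same count in each of the 18 embryos, 9 reads each, and the copies numbered just before them, L1Md_F2_dup40618 and L1Md_F2_dup40742, held 49 and 46, with counts that differed by 1 read in each of 3 embryos. Whether such pairs are separate sources was not tested.

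Genes known to act on LINE1 transcription, RNA or chromatin were read from the same embryos. Of 40, 38 were tested, and 20 were lower and 0 higher in TBP LOF embryos (29.7% lower over all genes and TE families). Their median log2 fold change was -0.99 (-0.72 over all features). In a fit limited to features kept by edgeR's expression filter, 4049 of 7684 genes were lower and 122 higher, with a median of -0.90. The share of lower genes in that fit was close to the regulators' 20 of 38. That filter drops features with few reads, and the part of expression level in the regulators' count was not tested. With TMM scaling 8 regulators were lower and 3 higher (12.7% and 12.8% over all features), with a median of -0.20 (0.11 over all features). Yy1, whose product binds the monomers of mouse LINE1 promoters, had medians of 44.3 in CONTROL and 28.2 in TBP LOF embryos (log2 fold change -0.96, SE 0.35, adjusted p = 0.0274; with TMM -0.16, adjusted p = 0.691). Ncl, nucleolin, which acts with LINE1 RNA in early embryos, had medians of 642 and 122, with the groups apart (-2.30, SE 0.33, adjusted p = 1.64e-07). Trim28, a corepressor that recruits heterochromatin enzymes to retrotransposons, had medians of 142 and 45.5 (-1.29, SE 0.32, adjusted p = 0.00108), and Dnmt1, the maintenance DNA methyltransferase, 72.8 and 33.7 (-1.27, SE 0.33, adjusted p = 0.00181). With TMM scaling Trim28 and Dnmt1 did not pass (adjusted p = 0.161 and 0.246) and Ncl did. Tfap2c, a transcription factor of the early embryo, and Pabpc1, the poly(A)-binding protein, were also lower (-2.12, SE 0.33, adjusted p = 1.28e-06, and -1.70, SE 0.30, adjusted p = 7.61e-06). The 3 higher with TMM scaling were Rnaseh2a, a subunit of RNase H2 (1.13, adjusted p = 0.00240), Zcchc3 (1.11, adjusted p = 0.00789) and Suv39h2, a histone H3 lysine methyltransferase (0.99, adjusted p = 0.0165), which with spike-ins had values of 0.15, 0.36 and 0.12 and did not pass.

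Loss of FOXJ3, a forkhead transcription factor, did not detectably change an L1Md family either. With TMM scaling and the library batch in the model, 0 of 7 passed by edgeR, with 1 at an unadjusted p under 0.05, and DESeq2 with batch gave the same counts; over all genes and TE families 0.0102% were lower and 0.0% higher. L1Md_F2 had the smallest p, with medians of 958 in CONTROL and 852 in FOXJ3 LOF embryos of batch 1 and 1067 and 876 in batch 2 (log2 fold change -0.31, SE 0.14, p = 0.0291 and adjusted p = 0.852 by edgeR). Its value was -0.32 in batch 1 and -0.29 in batch 2, both short of the threshold (edgeR adjusted p = 0.752 and 0.900). L1MdTf_II ran from 10.4 to 365 over the 29 embryos, with a log2 change of 0.36 (SE 0.37, adjusted p = 0.956). It was 0.04 (SE 0.50) in batch 1, 0.78 (SE 0.41) in batch 2 and 0.70 (SE 0.36, unadjusted p = 0.0536 by edgeR) with ERCC size factors, with no call in any of the 3. The other 5 families lay between -0.27 (L1Md_Gf) and 0.11 (L1Md_A), and the difference between batches passed in none.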

How the data were processed

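The authors sequenced single embryos by Smart-seq+5' (a Smart-seq2 variant that keeps transcript 5′ ends), mapped 5′ reads with STAR 2.7.11a to GRCm38 (per the labels and their methods) and counted with TEcount per gene and TE family and TElocal per insertion, after replacing L1MdTf_II by its monomers. The deposited values are estimated counts (expected counts), not normalized and all whole, so rounding changed nothing. The sources used here do not give how reads that map to several copies were shared out or whether strand was used, so reads of near-identical L1Md copies, and of a copy inside a gene, may sit on the wrong row.

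Embryos had at least 500000 counted reads, 1000 genes, at most 10% mitochondrial and 15% ERCC reads. Features with a read in 25% of embryos were tested two-sided with edgeR 4.0.16 (quasi-likelihood, Benjamini-Hochberg over all genes and insertions, or genes and families; threshold 0.05), with size factors from 42 ERCC transcripts, or TMM with batch for FOXJ3. For families, 42 subfamily rows were added to their families. Standard errors come from the F statistic. Ratios and shares were compared by two-sided exact permutation over embryos (48620 splits, smallest p 4.11e-05). Reads amplified by PCR carried no molecular identifiers and do not count molecules. Named insertions are, per family, the 3 of highest mean count and the 2 of smallest adjusted p in each direction; further ones were named after their values were seen. The marker, regulator and member lists were chosen with earlier results of these data known.

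Embryos are labelled as separate samples. The same embryo numbers occur in both groups for 7 embryos, and the correlations of their deviations ran from -0.16 to 0.25, so the numbers were not taken as pairs. On simulated data with 200 changed features, the insertion test recovered 3.5% of features with a mean of at least 1 read at a log2 change of 2. It recovered 19% of those with at least 10, and 0% at a change of 1. The family test recovered 53% and 86%, and 2% and 8.5%. Far more features passed in the data, 8618 lower and 450 higher in the insertion fit and 5758 and 259 in the family fit. The adjusted threshold was thus stricter in the simulation, and its recovery does not measure the power of the tests here. Alternatives covered scaling (TMM, DESeq2 1.42.0), filters, counts summed over insertions and leaving out each embryo. Scripts ran in R 4.3.3 and in Python 3.11.15 with scipy 1.17.1, pandas 2.3.3, numpy 2.4.6 and, for plots, matplotlib 3.10.9.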

Additional observations from a re-analysis of the deposited data

Results flagged for a closer look

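Of 78 groups of values examined (families, ratios and named insertions with at least 100 reads), 7 had an embryo whose distance from the next exceeded Dixon's 95% criterion. For normally distributed values chance gives this in about 1 of 20 groups. Many groups hold untransformed counts, and all 7 values were the highest of their group, so this rate may not hold here. Several groups hold the same embryos and are not independent. In batch 1 of the FOXJ3 experiment, CONTROL 3 (rabbit IgG) was the highest of 7 embryos in 3 families, with normalized counts of 124 for L1Md_F (next 68.7), 186 for L1Md_F3 (next 87.5) and 499 for L1Md_T (next 297). TBP LOF 10 had the highest log2 ratio of L1Md_A to other L1Md reads, -2.55 (next -3.01), and the highest count of L1Md_F_dup1380, 23.8 (next 7.94). CONTROL 6 was highest for L1Md_F2_dup1316, at 81.6 (next 45.1), and TBP LOF 2 for L1Md_F3_dup1623, at 103 (next 51.7).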

How the results depend on the processing

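The higher part of L1Md among LINE1 reads was positive under all 22 alternatives and passed in 21; leaving out each embryo gave 0.34 to 0.43, and with only the insertions that met the 25% rule it was 0.36 (adjusted p = 0.0561). No family passed under any alternative. The share of counted reads stayed short of the threshold throughout (0.000758 to 0.0124 percentage points without 1 embryo) and was -0.52 as a log2 ratio to ERCC reads (exact permutation p = 0.141). Rows detected at equal counted reads differed by 3.05, against -47.0 to -12.1 without 1 embryo. Against 15 lower members, there were 8 with TMM, 9 with DESeq2 size factors, 6 when 50% of embryos was required (70 members tested) and 11 to 18 without 1 embryo, where 6.76%, 6.94%, 18.1% and 12.4% to 15.8% of all features were lower. Higher members numbered 9 with DESeq2 size factors, 2 by DESeq2's own test with ERCC size factors (which left 100 of 213 members with no adjusted p), 1 with the 50% rule and 2 to 6 without 1 embryo (2 without CONTROL 8 or CONTROL 9, 3 without CONTROL 5), where 3.57%, 0.552%, 0.58% and 0.45% to 0.869% of all features were higher. The members' median was 0.16 with TMM, 0.21 with DESeq2 size factors and -0.60 to -0.29 without 1 embryo (-0.29 without TBP LOF 11). The cause was not tested.

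Scaling set the sign of family values. With TMM and with DESeq2 size factors they were 0.82 and 0.82 for L1MdTf_II, 0.27 and 0.29 for L1Md_A, 0.28 and 0.30 for L1Md_F2, 0.31 and 0.32 for L1Md_F3, 0.60 and 0.62 for L1Md_F, 0.55 and 0.57 for L1Md_Gf and 0.35 and 0.37 for L1Md_T. Summed over insertions, L1MdTf_II gave 0.13 and L1Md_Gf 0.12. Without 1 embryo, L1MdTf_II ran from -0.60 to 0.19, L1Md_A from -0.60 to -0.35, L1Md_F2 from -0.64 to -0.39, L1Md_F3 from -0.63 to -0.31, L1Md_F from -0.32 to -0.01, L1Md_Gf from -0.42 to -0.02 and L1Md_T from -0.58 to -0.31. Ratios among families that crossed 0 without 1 embryo were L1Md_A (-0.0855 to 0.0305, and 0.0193 over the insertions that met the rule), L1Md_F2 (-0.0909 to 0.0454), L1Md_F3 (-0.0261 to 0.10) and L1Md_Gf (-0.0736 to 0.43). In the FOXJ3 experiment, L1MdTf_II ran from 0.04 in batch 1 to 0.78 in batch 2 and was 0.70 with ERCC size factors. L1Md_F3 was 0.15 and L1Md_T 0.16 with ERCC size factors, L1Md_Gf 0.0194 in batch 1, and L1Md_A -0.00736, L1Md_F3 0.11 and L1Md_T 0.0515 in batch 2.

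The embryo numbers were not taken as pairs, and the labels do not say whether embryos of the same number were collected together. With the number as a replicate block over 14 embryos, 1 member was lower and 0 higher with a median of 0.0820 (over all features 6.36%, 0.526% and -0.39), and without the block, an alternative chosen after seeing the data, the same embryos gave 2 and 3 with a median of -0.0253 (5.97%, 0.377% and -0.37). With and without the block, L1MdTf_II was 0.32 and 0.47, L1Md_F 0.21 and 0.15 and L1Md_Gf 0.21 and 0.19; L1Md_F3 was 0.0462 with it. The share of counted reads differed by 0.0243 percentage points with it (exact permutation p = 0.0938). With and without the block, L1Md_A_dup2194 was 0.0549 and 0.17, L1Md_F2_dup52803 0.0236 and 0.0269, L1Md_F3_dup1623 0.0820 and 0.18, L1Md_T_dup4775 0.33 and 0.89 and L1Md_T_dup18258 0.16 and 0.0344. With the block, L1Md_F_dup323 was 0.0178, L1Md_F_dup1380 -0.18 and L1Md_F3_dup2030 0.19.

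With TMM and DESeq2 size factors, uncalled copies changed sign: L1Md_A_dup2194 (0.40 and 0.42), L1Md_F2_dup52803 (0.41 and 0.44), L1Md_F3_dup1623 (0.44 and 0.42), L1Md_T_dup4775 (0.53 and 0.52) and L1Md_T_dup18258 (0.25 and 0.22). Without 1 embryo, the copies that crossed 0 were L1Md_A_dup204 (-0.35 to 0.34), L1Md_F2_dup1316 (-0.0417 to 0.41), L1Md_F_dup1380 (-0.32 to 0.99), L1Md_F_dup3879 (-0.13 to 0.36) and L1Md_T_dup4775 (-0.56 to 0.51). Members had a median of 17 reads over the 18 embryos, which limits the precision of most single values.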
